A study of Pongo abelii with 8 samples.

Results

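HMGCS1, IDI1, FDFT1, SQLE, LSS, SC5D and DHCR7 encode 7 enzymes of cholesterol synthesis, and their expression in iPSCs (induced pluripotent stem cells) of Sumatran orangutans was compared with that in dermal fibroblasts of the same animals. The genes were taken as a fixed list by symbol, and all probe sets that the platform annotation assigned to exactly 1 of these symbols were used. This gave 14 probe sets for 6 of the 7 genes, of 22277 probe sets and 11963 named genes on the array. No probe set carried the symbol FDFT1 in that annotation, so FDFT1, the squalene synthase, was not analysed here. The list holds enzymes of synthesis only, and genes of cholesterol uptake are described below from a separate list.

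Of 2 orangutans, KB10460 (female, aged 43 years) and KB10973 (male, aged 29 years), each gave 1 culture of upper limb fibroblasts and 3 iPSC colonies, or 8 cultures in all. Both animals were labelled as healthy controls. The iPSCs were made by transducing the fibroblasts with retroviruses that carry human OCT4, SOX2, KLF4 and c-MYC, so every iPSC culture carries these transgenes and the fibroblasts do not. Reprogramming and the expansion of the picked colonies were done on mouse feeder cells, for which a human array holds no marker. The part of feeder RNA in the values of the iPSC arrays was not tested. With 2 orangutans sampled, the spread behind each p-value is that between cultures and colonies and not between animals at large. In such bulk RNA, fewer cells of a type and less RNA per cell cannot be told apart.

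Cholesterol is built from acetyl-CoA through mevalonate, isoprenoid diphosphates, squalene and lanosterol. When sterol in the endoplasmic reticulum is low, the escort protein SCAP carries the membrane-bound transcription factor SREBP2 to the Golgi, where proteases release its active part, and the genes of synthesis and of lipoprotein uptake are transcribed more. When sterol is plentiful, INSIG proteins hold SCAP back. Growing cells need cholesterol for new membranes and can either make it or take it up from the lipoproteins of serum. The medium is therefore part of the comparison. The growth protocol and the methods of the study give fetal bovine serum for the fibroblasts and serum replacement for the iPSCs, whereas the design text gives serum replacement for both. If the media differed, medium and cell type cannot be told apart in these data.

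RNA of each culture went on a separate Affymetrix array designed for human transcripts, and expression is given as the log2 value of the RMA normalization. Array medians were 3.74 to 3.82 and first quartiles 3.22 to 3.29 on this scale, so values near or under these are at the low end of the scale, where folds are understated. The probes match human transcripts, and mismatches to the orangutan sequence were not examined for these genes, so the level of a probe set is compared between cultures and not with that of another probe set. Of 6 pluripotency markers listed, 4 had a probe set assigned to exactly 1 symbol (SOX2, NANOG, LIN28A and DNMT3B). All 4 were higher in the iPSCs, by 2.37 to 7.16 on the log2 scale. Of 7 fibroblast markers, 6 were lower, and THY1, a surface glycoprotein also found on pluripotent cells, was higher. DCN fell most (3.78 in the iPSCs against 12.45 in the fibroblasts) and COL1A1 least (6.46 against 8.01). COL1A1 was also higher in the KB10973 iPSCs than in those of KB10460 (log2 difference 0.76, limma adjusted p = 0.035). The summed log2 values of these 7 markers were 33.7 to 38.0 in the iPSC arrays and 63.0 to 65.3 in the fibroblasts. Of 8 markers of early differentiated cells, 1 was higher in the iPSCs (AFP, 5.98 against 3.90) and the others were not called. FOXA2, not called, varied most between colonies, from 3.43 to 5.58, with 3.37 and 3.20 in the fibroblasts. The summed log2 values of the 8 markers were 30.3 to 34.2 in the iPSCs against 27.3 to 29.0 in the fibroblasts. The part of such cells in the results below was not tested. KB10973 colonies 1 and 2 had the highest correlation of any pair of iPSC arrays (r = 0.994 across probe sets).

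The iPSCs were compared with the fibroblasts to ask which steps of the pathway differed between the reprogrammed and the donor cells. Expression was higher in the iPSCs at 5 of the 14 probe sets and lower at 0, and the other 9 were not called. A call needed a fold change over 1.5 and a two-sided limma p under 0.05 after Benjamini-Hochberg adjustment over the 22277 probe sets. By that rule 12.2% of all probe sets were higher and 9.6% lower, or 21.8% in either direction. The called probe sets belong to HMGCS1 (2 of 2), SC5D (1 of 2), SQLE (1 of 3) and DHCR7 (1 of 2), while those of IDI1 and LSS were not called. The median log2 fold change of the 14 probe sets was 0.30, against -0.01 over all probe sets. At 10 of them the lowest iPSC value exceeded the higher fibroblast value, which was so for 19.8% of all probe sets (38.0% were without overlap on either side).

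**Figure D1:**
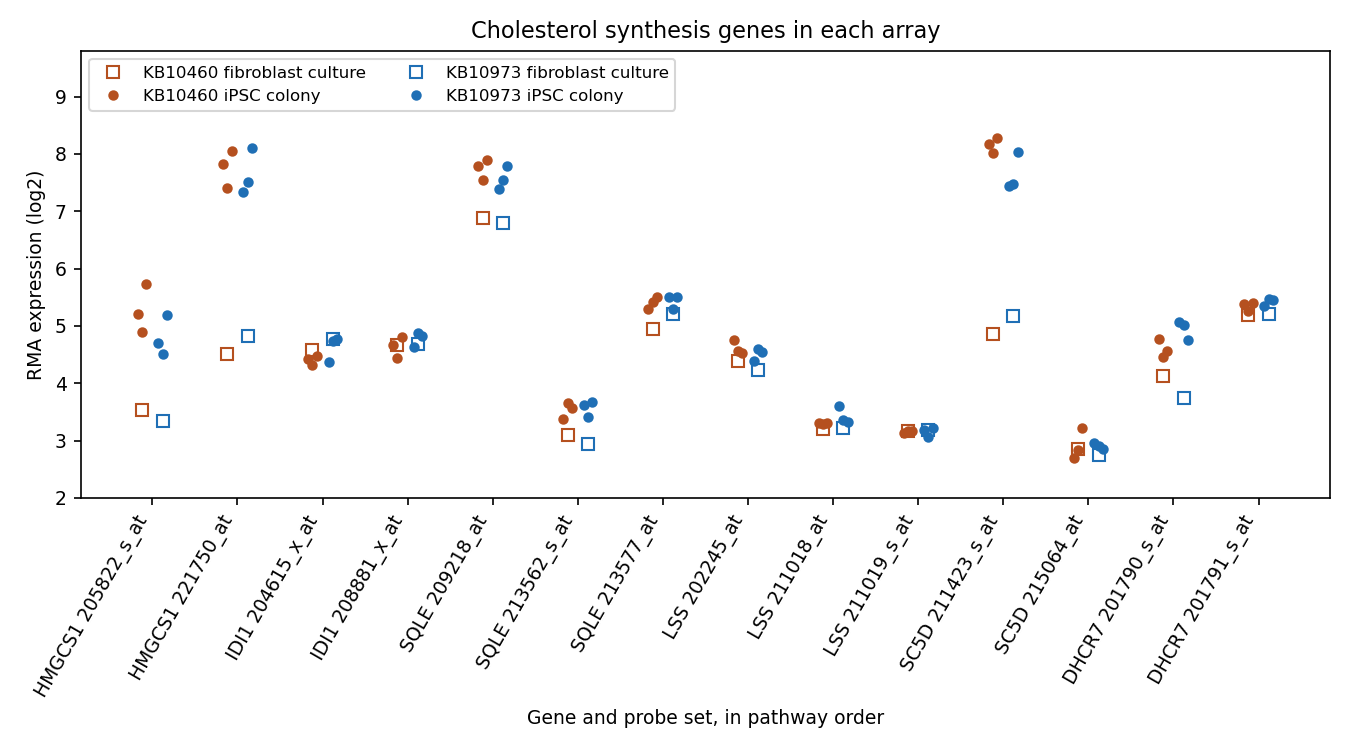
Log2 RMA expression (vertical axis) of each probe set of the cholesterol synthesis genes (horizontal axis, in the order of the pathway), with fibroblast cultures as open squares and colonies as filled circles, in a colour for each donor. The circles stand far above the squares for HMGCS1 and for SC5D 211423_s_at, closer above them for SQLE 209218_at, and among them for IDI1.

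HMGCS1 encodes the cytosolic HMG-CoA synthase, which makes the substrate of the reductase that sets the pace of the pathway. At its probe set 221750_at the fibroblasts of KB10460 and KB10973 had log2 values of 4.51 and 4.82. The KB10460 colonies 1 to 3 had 7.83, 7.40 and 8.05, and the KB10973 colonies 1 to 3 had 7.33, 7.51 and 8.11. The lowest colony was thus far above the higher fibroblast culture, and the colonies of the donors overlapped with each other. The iPSCs had a mean of 7.71 ± 0.34 (SD, n = 6) and the fibroblasts one of 4.66 ± 0.22 (SD, n = 2), a log2 fold change of 3.04 (standard error 0.22, limma adjusted p = 1.0e-05), or 8.24-fold. The second HMGCS1 probe set, 205822_s_at, also rose, with 3.54 and 3.35 in the fibroblasts and 4.52 to 5.74 in the iPSCs. Its log2 fold change was 1.60 (standard error 0.28, limma adjusted p = 0.0019), smaller than that of 221750_at, and its fibroblast values are at the low end of the scale.

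IDI1 encodes the isomerase that turns isopentenyl diphosphate into dimethylallyl diphosphate, the starter of isoprenoid chains. Its fibroblast and iPSC values overlapped at both probe sets. At 208881_x_at the fibroblasts had 4.67 and 4.69 and the iPSCs 4.45 to 4.88, with a log2 fold change of 0.03 and a 95% interval of -0.23 to 0.30. At 204615_x_at the log2 fold change was -0.17, with an interval of -0.48 to 0.14. Both intervals lie within a 1.5-fold change in either direction. The names of these probe sets end in x_at, which Affymetrix gives to probe sets that may also bind other transcripts.

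SQLE encodes squalene epoxidase, which uses oxygen and is a slow step of the later part of the pathway, and LSS encodes lanosterol synthase, which closes the rings of its product. At SQLE 209218_at the fibroblasts had log2 values of 6.87 in KB10460 and 6.80 in KB10973. The KB10460 colonies had 7.79, 7.55 and 7.89 and the KB10973 colonies 7.39, 7.55 and 7.80. Every colony was above both fibroblast cultures, by less than for HMGCS1, and the log2 fold change was 0.82 (standard error 0.14, limma adjusted p = 0.0015), or 1.77-fold. The other SQLE probe sets had the same direction and lay under the fold threshold, with 0.53 at 213562_s_at (limma adjusted p = 0.0038) and 0.35 at 213577_at (limma adjusted p = 0.027). The 3 probe sets of LSS were not called. LSS 202245_at was at 4.39 and 4.23 in the fibroblasts and 4.40 to 4.76 in the iPSCs, so the groups were barely apart. Its log2 fold change was 0.25 (standard error 0.10, limma adjusted p = 0.095), with a 95% interval of 0.03 to 0.48. The others, LSS 211018_at and 211019_s_at, lay between 3.07 and 3.61 in all arrays, at the low end of the scale.

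SC5D and DHCR7 act near the end of synthesis. SC5D encodes the sterol desaturase that makes 7-dehydrocholesterol, and DHCR7 the reductase that turns it into cholesterol. SC5D 211423_s_at had log2 values of 4.86 in the KB10460 fibroblasts and 5.17 in those of KB10973. The KB10460 colonies had 8.18, 8.01 and 8.28, and the KB10973 colonies 7.43, 7.48 and 8.03. All 6 colonies were well above the fibroblasts, with KB10973 colonies 1 and 2 the lowest. The log2 fold change was 2.88 (standard error 0.24, limma adjusted p = 1.9e-05), or 7.39-fold. The second SC5D probe set, 215064_at, was at 2.70 to 3.23 in every array and was not called (0.11, limma adjusted p = 0.60). Its values were at the low end of the scale.

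DHCR7 201790_s_at was at 4.13 in the KB10460 fibroblasts and 3.75 in the KB10973 fibroblasts. Its values were 4.77, 4.46 and 4.56 in the KB10460 colonies and 5.07, 5.02 and 4.76 in the KB10973 colonies. The groups did not overlap, and the gap was narrow in KB10460 and wider in KB10973. The log2 fold change was 0.84 (standard error 0.18, limma adjusted p = 0.0061), or 1.78-fold, and it was 0.65 without the KB10973 fibroblasts, which ended the call (limma adjusted p = 0.065). It also ended with colonies averaged within donor (limma adjusted p = 0.068). The other DHCR7 probe set, 201791_s_at, was at 5.19 and 5.20 in the fibroblasts and 5.25 to 5.46 in the iPSCs. Its log2 fold change of 0.19 (95% interval 0.01 to 0.37) was not called. The DHCR7 probe sets thus gave different sizes of change, and the regions of the transcript that they cover were not examined.

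The changes were also read within each donor, as the mean of its 3 colonies minus its own fibroblast culture. HMGCS1 221750_at rose by 3.25 in KB10460 and 2.84 in KB10973, SC5D 211423_s_at by 3.30 and 2.47, and SQLE 209218_at by 0.87 and 0.78. DHCR7 201790_s_at had changes of 0.47 in KB10460 and 1.20 in KB10973. Direction was shared by the donors for all 5 called probe sets. The difference of the change between donors was called for 0 of the 14 probe sets in limma, against 2.91% of all probe sets (1.2% higher and 1.71% lower), and 2 of the 14 had an unadjusted p under 0.05, a share that was 15.2% over all probe sets. These were DHCR7 201790_s_at (difference 0.74, 95% interval 0.18 to 1.29, limma adjusted p = 0.18) and SC5D 211423_s_at (-0.82, 95% interval -1.59 to -0.06, limma adjusted p = 0.29). Each donor has 1 fibroblast array, which this fit assumes to vary like a colony.

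**Figure D2:**
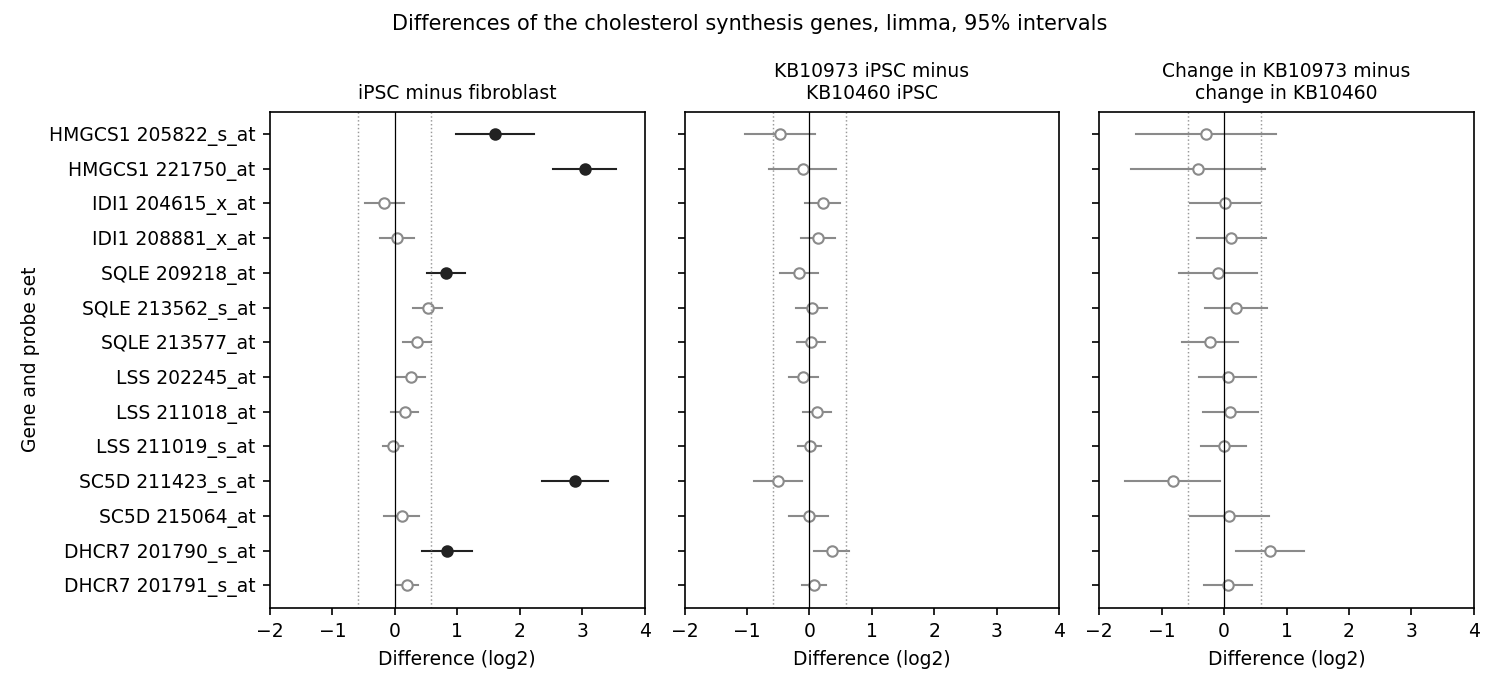
Log2 differences (horizontal axes) of each probe set (vertical axis) in limma, with 95% intervals as lines, for iPSCs minus fibroblasts, for KB10973 iPSCs minus KB10460 iPSCs, and for the difference of the change between donors. Filled points were called, open points were not, and the dotted lines mark a 1.5-fold change. The filled points stand only in the comparison of cell types, at HMGCS1, SQLE, SC5D and DHCR7.

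Between the iPSCs of the donors, 3 colonies against 3, none of the 14 probe sets was called by limma (0 of 14, against 0.0898% of all probe sets, with 0.0449% higher and 0.0449% lower). An unadjusted p under 0.05 was found for 2 of the 14, a share that was 10.2% over all probe sets. SC5D 211423_s_at was at 8.16 ± 0.13 (SD, n = 3) in KB10460 and 7.65 ± 0.33 (SD, n = 3) in KB10973, a log2 difference of -0.51 (95% interval -0.89 to -0.13, limma adjusted p = 0.36). DHCR7 201790_s_at differed in the other direction, by 0.36 (95% interval 0.08 to 0.63, limma adjusted p = 0.37). For HMGCS1 221750_at the difference was -0.11 with a wide interval of -0.65 to 0.43, so a difference between the donors of either sign was not excluded by these 6 arrays.

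The genes also varied among single colonies. Each gene was represented by the probe set of highest mean and set against its own mean over the 6 iPSC arrays. Averaged over the 6 genes, KB10973 colony 1 was lowest, at -0.24 on the log2 scale, with all 6 genes under their means at these probe sets, and KB10460 colony 3 was highest, at 0.17. HMGCS1 ranged from -0.37 in KB10973 colony 1 to 0.41 in KB10973 colony 3, and SC5D from -0.47 in KB10973 colony 1 to 0.37 in KB10460 colony 3. DHCR7, at 201791_s_at, lay between -0.13 and 0.08. Other probe sets of DHCR7, LSS, SQLE and SC5D went the other way in KB10973 colony 1. DHCR7 201790_s_at (5.07, against an iPSC mean of 4.78), LSS 211018_at (3.61) and SQLE 213577_at (5.51 against 5.42) had their highest values there. SQLE 213562_s_at (3.61 against 3.55) and SC5D 215064_at (2.96 against 2.92) were also above their means. HMGCS1 205822_s_at (4.70 against 5.04) and IDI1 204615_x_at (4.36 against 4.52) were under theirs.

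Over the 6 iPSC arrays 13 of the 15 pairs of these genes had a positive Pearson r, with a median of 0.46 and a range of -0.08 to 0.97. HMGCS1, SQLE and SC5D followed one another (r = 0.94 for HMGCS1 and SQLE, 0.87 for SQLE and SC5D, 0.72 for HMGCS1 and SC5D). At the probe sets used, IDI1 and DHCR7 formed another pair (r = 0.97), while SC5D had r values of -0.08 with each of them. The DHCR7 probe set, 201791_s_at, was not called between cell types and had a range of only 0.21 over the iPSC arrays. No correlation was computed for the called DHCR7 probe set, 201790_s_at, so the pairing is not shown for DHCR7 as a gene. The correlations given are descriptions over 6 arrays that share 2 donors and 1 normalization. Of 1426 other genes with a mean log2 value of at least 6 in the iPSCs and a range of at least 0.5 over them, those most like the mean of the 6 genes were GET3 (r = 0.96), KDM4B (0.95), ARID1A (0.94), ERI2 (0.91) and CLASP1 (0.91), over the same 6 arrays. A ranking of 1426 genes over 6 arrays puts some at a high r by chance, and a link of these genes to the enzymes was not tested.

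**Figure D3:**
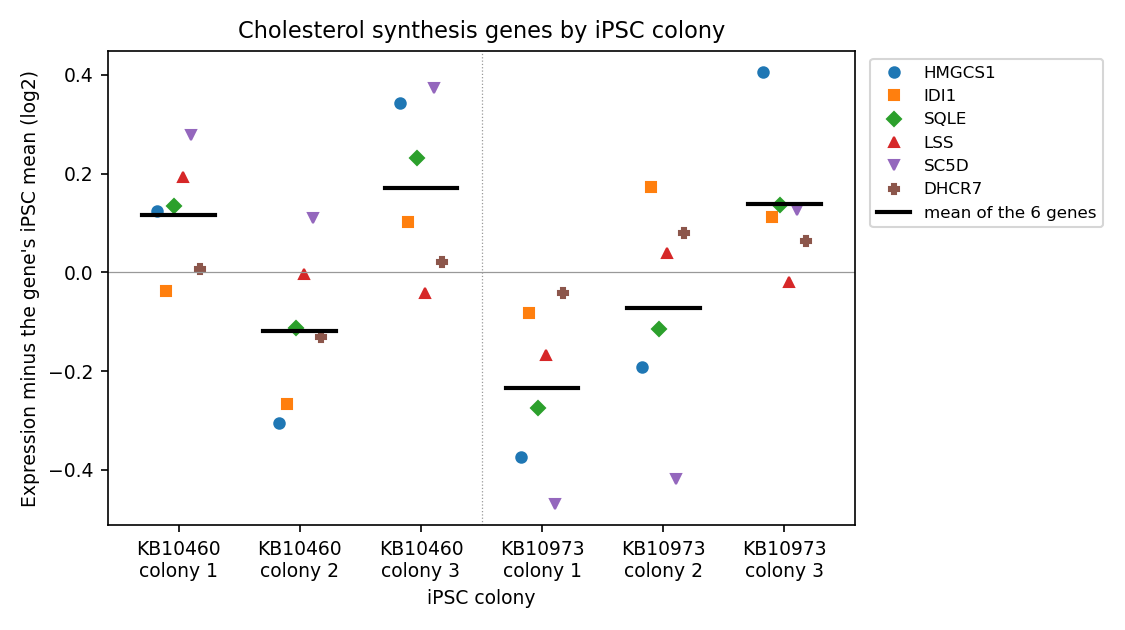
Log2 expression of each gene minus its own mean over the 6 iPSC arrays (vertical axis) in each iPSC colony (horizontal axis), with 1 symbol per gene and the mean of the 6 genes as a black line. The black line is lowest in KB10973 colony 1 (-0.24) and highest in KB10460 colony 3 (0.17), and colonies of both donors lie on either side of 0.

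The rest of the pathway was read from lists of 64 further genes, each represented by the probe set of highest mean. Of the 51 with a probe set of their own symbol, 15 were higher in the iPSCs, 6 were lower and 30 were not called, where over all named genes 15.2% were higher and 11.5% were lower. The highest mean was taken over 8 arrays, 6 of them of iPSCs, which favours probe sets that are high in the iPSCs. When the mean of all probe sets of a gene was used instead, 12 were higher and 5 were lower. Among the other enzymes of sterol synthesis, 6 of 12 measured genes were higher and none was lower, with a median log2 fold change of 0.73 against -0.00 over all genes. LBR, which is both a sterol reductase and a receptor for lamin B, rose by 1.83 (standard error 0.21), with 3.12 and 3.85 in the fibroblasts against 5.01 to 5.60 in the iPSCs. ERG28, an adaptor of the enzymes that demethylate sterols, rose by 1.74 (standard error 0.21). Its fibroblast cultures differed, with 4.77 in KB10460 and 5.70 in KB10973, while the iPSCs were at 6.84 to 7.18. ACAT2, the thiolase that supplies HMG-CoA synthase with acetoacetyl-CoA, rose by 1.22 (standard error 0.19). FDPS, HSD17B7 and EBP also rose, by 0.72 to 0.91. The FDPS call ended without the KB10460 fibroblasts (0.40, limma adjusted p = 0.27). With colonies averaged within donor the calls of ACAT2, FDPS and EBP ended (limma adjusted p = 0.061, 0.15 and 0.092). That of EBP also ended without either fibroblast culture and without KB10460 colony 2 or 3 (limma adjusted p between 0.055 and 0.20). Enzymes that act just before IDI1 were not called, with log2 fold changes of -0.08 for MVK, -0.14 for PMVK and 0.29 for MVD. MSMO1, a sterol oxidase, had a high signal in both cell types (9.01 ± 0.24, SD, n = 6, and 8.89 ± 0.09, SD, n = 2) and was not called either.

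In the branches that leave the pathway at the isoprenoids, 2 of 5 genes were higher and none was lower (15.2% and 11.5% over all genes). They were PDSS1 (log2 fold change 1.14, standard error 0.14) and COQ2 (0.88, standard error 0.13), which act in the synthesis of coenzyme Q. The median of this list was 0.43.

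Of 8 measured genes of sterol sensing, none was higher and 2 were lower, against 15.2% and 11.5% over all genes. The other 6 were not called, and the median was -0.22. INSIG1, which retains SCAP in the endoplasmic reticulum and is itself a known target of SREBP2, was at 6.39 and 6.24 in the fibroblasts and at 4.39 to 5.12 in the iPSCs. All colonies lay below both fibroblast cultures, and INSIG1 fell (log2 fold change -1.58, standard error 0.16, limma adjusted p = 8.4e-05). INSIG1 thus moved in the direction opposite to that of HMGCS1 and SC5D. MBTPS1, the protease that makes the first cut in SREBPs, fell as well (-1.25, standard error 0.17). SREBF2, which encodes SREBP2, was not called (0.09, limma adjusted p = 0.72). SREBF1, another gene of the SREBP family, was lower by just less than the fold threshold (-0.56, limma adjusted p = 0.0013) and was not called. Its values were 4.45 and 4.24 in the fibroblasts and 3.66 to 3.87 in the iPSCs, the latter at the low end of the scale. Without the KB10973 fibroblasts its log2 fold change was -0.66.

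Of 9 measured genes of uptake and intracellular transport, 2 were higher and 1 was lower, against 15.2% and 11.5% over all genes. The other 6 were not called, and the median was -0.13. VLDLR, a receptor of the lipoprotein receptor family, rose by 1.59 (standard error 0.33), with 3.61 and 3.23 in the fibroblasts and 4.39 to 5.93 in the iPSCs. LIPA, the lysosomal lipase that frees cholesterol from lipoproteins, was called at 0.73 (standard error 0.18), and this call ended without the KB10460 fibroblasts (0.53, limma adjusted p = 0.15). The scavenger receptor gene SCARB1 had a log2 fold change of 0.12 and was not called. The call of the lower gene ended when any of 7 of the 8 arrays was left out, with log2 fold changes of -0.70 to -0.51 in those fits.

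Of 8 measured genes of efflux, storage and oxysterols, 1 was higher and 2 were lower, against 15.2% and 11.5% over all genes. The other 5 were not called. ABCA1, the exporter of cellular cholesterol, was at 6.87 and 6.94 in the fibroblasts and at 3.97 to 4.30 in the iPSCs. Its log2 fold change was -2.76 (standard error 0.10, limma adjusted p = 1.2e-07). CYP7B1, an oxysterol hydroxylase, was lower by little more than the fold threshold (-0.60), from 3.92 and 3.52 to 3.03 to 3.23. Its call ended with either array scaling (-0.56 and -0.57), without KB10973 colony 1 (-0.58) and without the KB10460 fibroblasts (-0.40). The call also ended with colonies averaged within donor (limma adjusted p = 0.091).

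Fatty acid genes share regulators of the SREBP family with the sterol genes. Of 9 measured, 4 were higher and 1 was lower, against 15.2% and 11.5% over all genes. The other 4 were not called, and the median was 0.58. ELOVL6, an elongase, rose by 3.61 (standard error 0.35) and its fibroblast cultures differed, with 3.80 in KB10460 and 5.26 in KB10973, while the iPSCs were at 7.64 to 8.54. The desaturase gene SCD rose by 2.16 (standard error 0.14), from 5.25 and 5.17 to 7.09 to 7.55. FASN (0.88) and ACACA (0.71) were also higher, and both calls ended without the KB10973 fibroblasts (0.56 and 0.39, limma adjusted p = 0.22 and 0.13). The desaturase gene FADS2 was lower (-1.01, standard error 0.09).

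**Figure D4:**
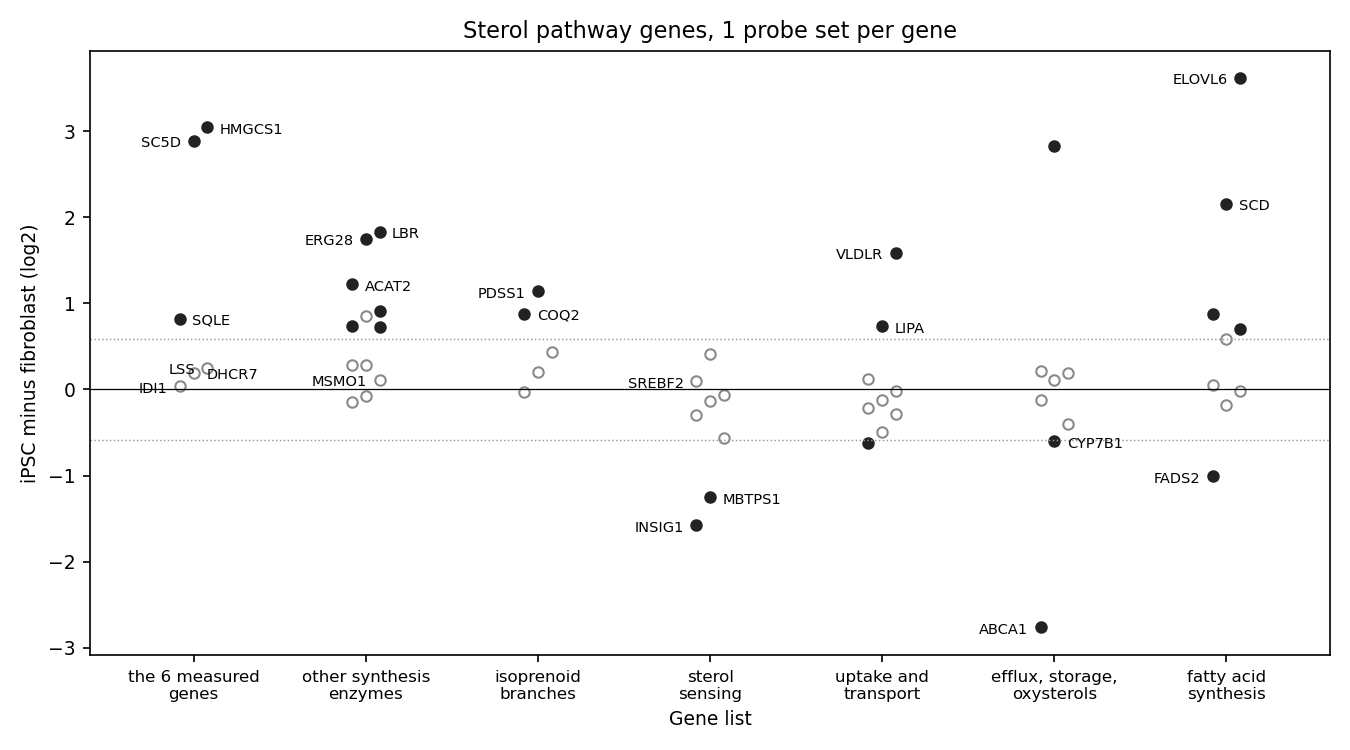
Log2 fold change of iPSCs against fibroblasts (vertical axis) for each gene of the sterol pathway, 1 point per gene from the probe set of highest mean, by list (horizontal axis). Filled points were called, open points were not, and dotted lines mark a 1.5-fold change. HMGCS1 (3.04) and SC5D (2.88) stand at the top of the measured synthesis genes, INSIG1 (-1.58) at the bottom of sterol sensing and ABCA1 (-2.76) at the bottom of efflux.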

How the data were processed

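Total RNA of 6 iPSC and 2 fibroblast cultures was labelled with biotin and hybridized to Affymetrix arrays for human transcripts. The authors normalized the arrays with RMA in WebArray (versions not stated in the paper or labels) and deposited log2 values of 22277 probe sets. RMA equalizes the distributions of the arrays, so a change shared by most transcripts would be removed. Every column of values had a sample (0 left over). Of the probe sets, the platform annotation named 19070 by 1 symbol and 1043 by several, and it left 2164 unnamed.

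The deposited values were fitted in limma 3.58.1 (R 4.3.3) by lmFit and eBayes. Cell types were compared over 8 arrays without a block, donors over the 6 iPSC arrays, and the donors' changes by an interaction over 4 groups. The SPLOSH false discovery rate of the study was replaced by Benjamini-Hochberg. Named genes were the 7 enzymes, the called genes with the largest changes in each pathway list among those reported by name (with further listed genes named after their values were seen), and the 5 genes most like the enzymes across the iPSCs. Some listed genes are counted and are not reported here by name, among them the gene with the largest change in the efflux list, which was higher, and the lower gene of the uptake list. The genes and lists were chosen with earlier results of these data known. Fibroblasts and iPSCs of a donor are paired by animal. The donor difference in fibroblasts had a correlation of 0.02 with that in iPSCs across probe sets. Alternatives changed the block, array weights, moderation, scaling, filter, fold and adjustment, averaged colonies or the probe sets of a gene, and left out each array. The scripts were tested on simulated data. The number of arrays limits the precision.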

Additional observations from a re-analysis of the deposited data

Results flagged for a closer look

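Of the 14 probe sets examined for a colony far from the other 5, 1 had such a colony. At LSS 211018_at, KB10973 colony 1 had a log2 value of 3.61, against 3.36 in the next highest colony, and this gap took up 79.0% of the range of the 6 colonies. Chance marks about 1 in 20 such groups, and the values lie under the median of the arrays.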

How the results depend on the processing

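The probe sets of the enzymes called higher in the iPSCs numbered 5, and 3 with a fold change over 2. With a mean log2 value of at least 5, 5 of the 14 probe sets were left to test and 3 of them were called, where 34.8% of all probe sets so filtered were called higher. That mean is over all 8 arrays, 6 of them of iPSCs. HMGCS1 221750_at, at 4.51 and 4.82 in the fibroblasts, passed only through its iPSC values, so the filter itself favours such calls. The count was 4 without the KB10973 fibroblasts, which ended the DHCR7 201790_s_at call, and 6 without the KB10460 fibroblasts, which added SQLE 213562_s_at (0.61, limma adjusted p = 0.012). No probe set of the enzymes was called lower under any alternative. With the donor as a replicate block the counts were 5 higher and 0 lower, and for the pathway lists 15 higher and 6 lower, as without it. With the colony number as a block 0 probe sets of the enzymes were called between the donors. Colony numbers had correlations of -0.05 to 0.06 across probe sets and mark no pairing. The pathway genes called higher numbered 9 with colonies averaged within donor (without ACAT2, FDPS, EBP, LIPA, FASN and ACACA), 9 with the Benjamini-Yekutieli adjustment and 8 with a fold change over 2, against 15, and those called lower 10 without a fold threshold, against 6. The mean of all probe sets of a gene gave 12 higher and 5 lower. Leaving out each array gave 12 to 16 higher and 4 to 7 lower. The DHCR7 201790_s_at call also ended with the Benjamini-Yekutieli adjustment (limma adjusted p = 0.065).

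Reversals of sign were seen only for differences near 0 that were not called. Between cell types, LSS 211019_s_at was 0.022 with arrays centred on their medians and 0.0066 after quantile normalization, and IDI1 208881_x_at ranged from -0.00022 to 0.088 when each array was left out. Between donors, HMGCS1 221750_at was 0.0071 with KB10973 colonies 1 and 2 averaged, SQLE 213562_s_at was -0.0013 with array weights, and LSS 211019_s_at was -0.0084 with array weights, -0.018 with arrays centred and -0.0056 after quantile normalization. When each array was left out, the donor difference ranged from -0.34 to 0.053 for HMGCS1 221750_at, from -0.041 to 0.11 for SQLE 213562_s_at, from -0.027 to 0.096 for SQLE 213577_at, from -0.034 to 0.047 for LSS 211019_s_at and from -0.12 to 0.14 for SC5D 215064_at. The cause was not tested.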
